A study of Arabidopsis thaliana with 10 samples.

Results

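Transcripts were compared between inflorescences of Arabidopsis thaliana exposed to ethanol vapour for 90 min to switch on a wild-type KLU transgene and inflorescences of the same transformed lines before induction, at 0 min. The comparison was chosen by sample title and rests on 4 of the 10 arrays of the series, 2 at 90 min and 2 at 0 min, with 1 array of line 3-1 and 1 of line 4-3 at each time. All 22746 probe sets that are not array controls were tested, and 13513 of them name 1 gene in the gene table used here. All plants of the series carried the klu-2 allele. The plants compared here also carried 35S::AlcR-AlcA::KLU, in which the 35S promoter drives AlcR in most cells and AlcR switches on the transgene when ethanol is present. Each sample was a pool of inflorescences with their young buds. The other arrays are wild-type KLU at 240 min and mutant KLU, the series' control protein, at 90 and 240 min in lines 1-5 and 3-2, with 2 arrays each. The series design holds no uninduced mutant KLU plants.

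KLU (CYP78A5) is a cytochrome P450 that promotes the growth of petals, leaves and other organs by keeping their cells dividing for longer. The ethanol switch comes from a fungus, whose AlcR protein activates the alcA promoter in the presence of ethanol or acetaldehyde. Plants oxidise ethanol to acetaldehyde, which is also the product of pyruvate decarboxylase in fermentation. The 4 arrays compared differ in induction, in vapour and in elapsed time at once, and these cannot be told apart between them. No probe set is listed under KLU in the gene table, so its transcript was not analysed here.

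The values are log2 intensities, so a difference of 1 unit is a doubling. Array medians lay between 5.93 and 6.05. Precision is limited by having 1 array of each line at each time. Tests used limma with the line as a block, and a probe set was called when its Benjamini-Hochberg adjusted p was under 0.05. With the block, lasting differences in level between lines are removed. The p-values then rest on how far the 2 transformed lines of a construct differ in their change over time, pooled over wild-type and mutant KLU. Fits without the block also count differences in level between the lines of a construct. In bulk tissue, fewer cells of a type and less RNA per cell cannot be told apart.

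At 90 min, 464 probe sets had risen and 314 had fallen relative to 0 min, which is 2.04% and 1.38% of those tested (3.42% in all). An unadjusted p under 0.05 was reached by 3745. The median difference was 1.44 log2 units among the rises and -1.06 among the falls, against -0.02 over all probe sets. Rises were larger as well as more frequent, with 137 of at least 2 log2 units against 22 falls of that size. The arrays of the 2 times did not overlap for 458 of the rises and 303 of the falls, nor for 7723 of all 22746 probe sets, and a call favours such probe sets. Where absence of overlap is given below for a called gene, it thus adds little to the call. Of the probe sets that name 1 gene, 249 rose (1.84%) and 161 fell (1.19%). The number of calls depended on the arrays used. Leaving out the 90 min array of line 3-1 gave 200 calls, and that of line 4-3 gave 297. Leaving out the 0 min array of line 3-1 gave 169, and that of line 4-3 gave 259. Without the block, 252 rose and 117 fell (1.11% and 0.514%, or 1.62% in all), and 365 of the 778 calls were also made.

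**Figure D1:**
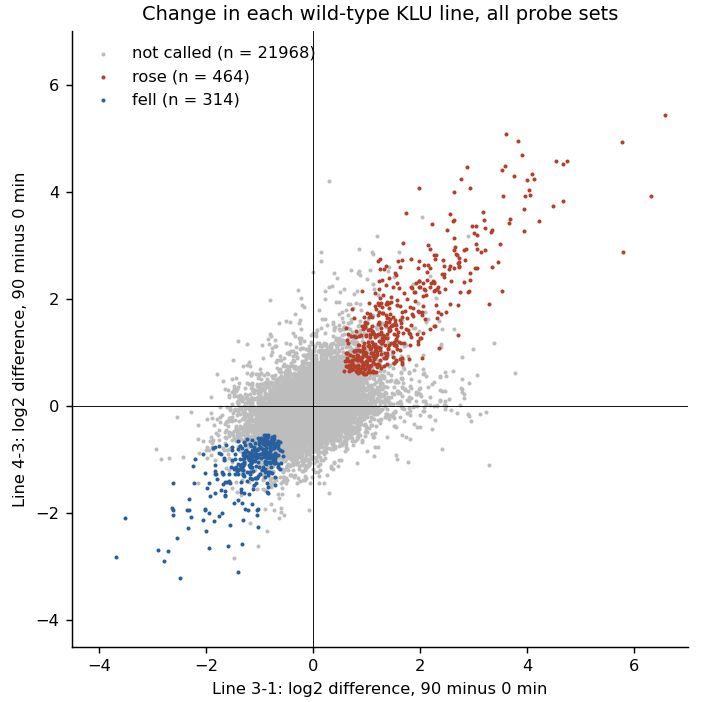
Log2 difference, 90 min minus 0 min, of every probe set in line 3-1 (x axis) and in line 4-3 (y axis), with called rises and falls coloured. Probe sets away from the diagonal differ between the lines. Over both lines the called rises reach 6.01 and the called falls -3.26.

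The lines shared part of the response. A difference of at least 1 log2 unit was seen in 1437 probe sets in line 3-1 and in 982 in line 4-3, and 526 had it in both in the same direction. The differences of the lines correlated across probe sets with a Pearson r of 0.575 and a Spearman rho of 0.333. Probe sets are no replicates, and the 4 arrays behind these values were normalized together.

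The largest named rise was that of AT3G63360 on chromosome 3. It had 9.90 and 8.92 log2 units at 90 min in lines 3-1 and 4-3, against 3.32 and 3.48 at 0 min. The difference was 6.01 log2 units (SE 0.387), or 64.4-fold (limma adjusted p = 0.00117). The times lay far apart in both lines. AGL86 on chromosome 1, which encodes a MADS-box transcription factor, had 8.95 and 8.27 at 90 min, against 3.18 and 3.33 at 0 min. That is 5.36 log2 units (SE 0.312, limma adjusted p = 0.000822). SBTI1.1 on chromosome 1, a subtilisin-like serine protease, had 12.06 and 11.83 at 90 min, against 7.39 and 7.31 at 0 min. It rose by 4.60 log2 units (SE 0.25, adjusted p = 0.000737). GPDHp on chromosome 5, named for a plastid glycerol-3-phosphate dehydrogenase, had 10.71 and 10.23 at 90 min, against 7.88 and 7.91 at 0 min, a rise of 2.58 log2 units (adjusted p = 0.000822). GPDHp was chosen after its values were seen. Without each array in turn the adjusted p stayed under 0.05 for these 4 genes, with a highest value of 0.022 for AT3G63360, 0.0156 for AGL86, 0.0165 for SBTI1.1 and 0.0146 for GPDHp. Without the block the adjusted p was 0.156 for AGL86, 0.0805 for SBTI1.1 and 0.0996 for GPDHp.

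APS4 on chromosome 5 encodes an ATP sulfurylase, the enzyme that activates sulfate at the start of its assimilation. It had 11.03 and 10.11 log2 units at 90 min, against 7.44 and 5.63 at 0 min, a difference of 4.04 (SE 0.453, limma adjusted p = 0.00852). The lines differed at 0 min by more than at 90 min. Absence of overlap between the times was a condition for the 20 largest named rises, APS4 among them. The adjusted p for APS4 was 0.143 without the block, and leaving out the 90 min array of either line took it to 0.0793 (line 3-1) or 0.0567 (line 4-3). Most of the other leading rises carry only a locus name. AT1G29180 had 8.75 and 8.68 at 90 min, against 4.00 and 4.11 at 0 min, and rose by 4.66. AT3G62780 had 8.50 and 9.14 at 90 min, against 3.96 and 4.57 at 0 min, and rose by 4.56. AT4G29780 rose by 4.30 and AT4G01870 by 4.00. For these 4 loci the adjusted p was at most 0.00065, and each call was also made without the block and without each array.

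**Figure D2:**
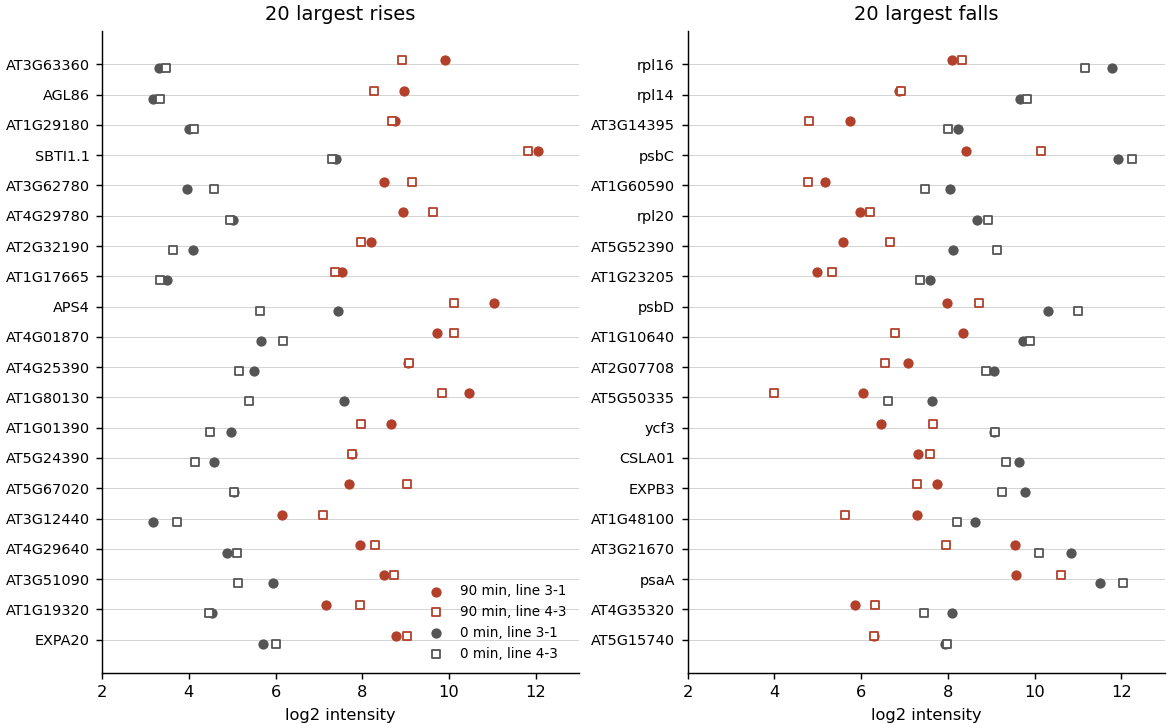
Log2 level of the 20 largest named rises (left) and falls (right) at 90 min (red) and 0 min (grey), with 1 point for each line. The genes were chosen to have no overlap between the times, and AT3G63360 has the widest gap, at 6.01 log2 units between the means.

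PDC2 led the fermentation and ethanol metabolism genes. This pyruvate decarboxylase, which makes acetaldehyde from pyruvate, had 9.37 and 8.88 log2 units at 90 min, against 6.65 and 6.21 at 0 min. The rise of PDC2 was 2.70 log2 units (SE 0.342), or 6.48-fold (limma adjusted p = 0.0123), and both lines showed it without overlap. Without each array in turn its adjusted p lay between 0.0567 and 0.111, so the call was lost each time. PDC2 was the 1 call among 3 measured members of the list (33.3%, against 3.42% of all probe sets). The other 2 were not called: ALDH2C4, an aldehyde dehydrogenase, differed by -0.32, and ACS, an acetyl-CoA synthetase, by 0.14.

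UDP-glycosyltransferases attach sugars to small molecules such as hormones, flavonoids and foreign compounds. Of 51 measured members 5 rose and 2 fell, where 2.04% of all probe sets rose and 1.38% fell, with a median difference of -0.06 against -0.02 over all probe sets. UGT71C3 had 6.11 and 6.70 log2 units at 90 min, against 3.38 and 3.94 at 0 min, a rise of 2.75 (SE 0.209, limma adjusted p = 0.00214). UGT71C5, known for glucosylating abscisic acid, had 6.59 and 7.48 at 90 min, against 4.75 and 4.74 at 0 min, a rise of 2.29 (adjusted p = 0.0185). UGT71C4, which follows beyond the members picked by rule, rose by 1.27 (adjusted p = 0.0449). UGT85A2 had 7.16 and 8.88 at 90 min, against 5.17 and 6.18 at 0 min, a rise of 2.35 (adjusted p = 0.0044), with the higher level in line 4-3 at both times. UGT85A5 rose by 1.53 (adjusted p = 0.0112). None of these 5 genes had overlapping times. The 2 that fell, UGT78D1 and UGT78D2, are also flavonoid genes. UGT71C3 was called under every alternative that tested it, whereas UGT71C4, UGT71C5 and UGT85A2 were not called without the block, with adjusted p of 0.0661, 0.0606 and 0.163. Without 1 array the adjusted p reached 0.195 for UGT71C4 and 0.117 for UGT71C5, and it lay between 0.054 and 0.0903 for UGT85A5, whereas UGT85A2 stayed called.

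Genes of wall loosening moved both ways. Expansins loosen the bonds between wall polymers. Of 19 measured members 2 rose and 2 fell, where 2.04% of all probe sets rose and 1.38% fell. Their median difference was -0.18. EXPA20 had 8.77 and 9.04 log2 units at 90 min, against 5.72 and 6.01 at 0 min, a rise of 3.04 (SE 0.124, limma adjusted p = 0.0005). The expansin-like gene EXLA1 had 9.22 and 9.25 at 90 min, against 7.38 and 7.02 at 0 min, a rise of 2.04 (adjusted p = 0.0211). EXPB3, a beta-expansin, had 7.75 and 7.30 at 90 min, against 9.77 and 9.25 at 0 min, and fell by 1.99 (adjusted p = 0.0102). EXPA15 had 8.07 and 7.86 at 90 min, against 9.46 and 9.62 at 0 min, and fell by 1.58 (adjusted p = 0.0371). In none of the 4 did the times overlap, which was a condition of choice for EXPA20 and EXPB3. Without the block the adjusted p was 0.0596 for EXPA20 and 0.109 for EXPA15, and without 1 array it reached 0.166 for EXLA1, 0.0868 for EXPB3 and 0.183 for EXPA15, all 3 of which lost the call without the 0 min array of line 3-1. Among 10 xyloglucan endotransglucosylases, which cut and rejoin wall xyloglucan, EXGT-A3 alone was called (10%, against 3.42% of all probe sets). EXGT-A3 had 8.90 and 9.69 at 90 min, against 8.13 and 8.05 at 0 min. It rose by 1.21 (limma adjusted p = 0.0418, and 0.0969 without the block).

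Of 12 genes of wall polysaccharide synthesis, 2 fell and none rose, where 1.38% of all probe sets fell. Their median difference was -0.45. CSLA01, a cellulose synthase-like gene of the mannan synthase family, had 7.32 and 7.60 log2 units at 90 min, against 9.64 and 9.34 at 0 min. It fell by 2.03 (SE 0.189, limma adjusted p = 0.00481), and without each array the adjusted p for CSLA01 was between 0.0123 and 0.0568, the highest without the 0 min array of line 3-1. TBL26, of a family that acetylates wall polysaccharides, had 8.75 and 8.57 at 90 min, against 10.05 and 9.69 at 0 min, and fell by 1.21 (adjusted p = 0.0269, at most 0.185 without 1 array). Both genes were lower at 90 min in both lines without overlap, which was a condition of choice for CSLA01.

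Of 7 measured flavonoid and phenylpropanoid genes 3 fell and none rose, where 1.38% of all probe sets fell. All 7 had a negative difference, as had 52.3% of all probe sets. Their median was -1.02 (-1.15 in line 3-1 and -0.88 in line 4-3), against -0.02 over all probe sets. UGT78D2, which glucosylates flavonoids, had 7.72 and 7.85 log2 units at 90 min, against 8.87 and 8.73 at 0 min, and fell by 1.02 (limma adjusted p = 0.0169). UGT78D1, which adds rhamnose to flavonols, had 8.46 and 8.58 at 90 min, against 9.17 and 9.65 at 0 min, and fell by 0.89 (adjusted p = 0.0238). HCT, a hydroxycinnamoyl transferase of lignin precursor synthesis, had 8.60 and 8.21 at 90 min, against 9.85 and 9.03 at 0 min, and fell by 1.04 (adjusted p = 0.031). The 2 times did not overlap for these 3 genes, although the lines of HCT stood far apart at 0 min. The largest difference of the list, -1.51 for CHIL, a chalcone isomerase-like protein, was not called (adjusted p = 0.0778). CHIL had 7.78 and 8.95 at 90 min, against 9.91 and 9.83 at 0 min. UGT78D3 (-1.34), DFR (-0.66) and BAN (-0.16) were not called either. Without the block UGT78D1 and HCT lost their calls (adjusted p of 0.0607 and 0.144), and UGT78D2 had an adjusted p of up to 0.14 without 1 array.

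The list of light signalling and chlorophyll synthesis gave 1 rise and 1 fall, and the auxin list gave 1 rise. PORB, which reduces protochlorophyllide to chlorophyllide in the light, had 9.66 and 9.48 log2 units at 90 min, against 6.95 and 8.16 at 0 min, a rise of 2.02 (limma adjusted p = 0.0296, and 0.211 without the 90 min array of line 3-1). HYH, a bZIP factor of light signalling, had 3.93 and 3.44 at 90 min, against 5.00 and 4.79 at 0 min, and fell by 1.21 (adjusted p = 0.0125, and 0.105 without the block). The other 4 of the 6 light signalling and chlorophyll genes were not called, so 33.3% of the list was called, against 3.42% of all probe sets. GH3.3, which conjugates auxin to amino acids, had 8.72 in both lines at 90 min, against 7.55 and 7.93 at 0 min, a rise of 0.98 (adjusted p = 0.0427, and 0.0981 without the block). GH3.3 was the 1 call among 11 auxin genes (9.09%, against 3.42% of all probe sets). These calls were lost without 1 array as well: PORB was called only without the 0 min array of line 4-3, GH3.3 had an adjusted p of at least 0.0784 without each array, and HYH had an adjusted p of 0.0915 without the 0 min array of line 3-1.

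JMT makes methyl jasmonate, and BSMT1 methylates benzoate and salicylate. JMT had 6.79 and 7.22 log2 units at 90 min, against 8.13 and 8.38 at 0 min, and fell by 1.25 (SE 0.141, limma adjusted p = 0.00859). It was the 1 call among 4 jasmonate genes (25%, against 3.42% of all probe sets). BSMT1 had 8.18 and 8.16 at 90 min, against 9.74 and 9.44 at 0 min, and fell by 1.42 (adjusted p = 0.00632). TRY, a small MYB protein that restrains trichome formation, had 6.28 and 6.21 at 90 min, against 7.83 and 7.66 at 0 min, and fell by 1.50 (adjusted p = 0.00719). IYO, which binds RNA polymerase II and aids its elongation, had 7.59 and 8.06 at 90 min, against 5.67 and 5.76 at 0 min, and rose by 2.11 (adjusted p = 0.00484). BSMT1, TRY and IYO were singled out after their values were seen. None of these 4 genes had overlapping times. Leaving out 1 array took the adjusted p to at most 0.0765 for JMT, 0.0628 for BSMT1, 0.0686 for TRY and 0.0479 for IYO. SWEET1, a glucose transporter, had 9.91 and 9.32 at 90 min, against 10.61 and 10.34 at 0 min. It fell by 0.86 (limma adjusted p = 0.0371, and 0.169 without the block) as the 1 call among 13 sugar starvation genes. That is 7.69% of the list, against 3.42% of all probe sets.

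CYP78A9 is the member of KLU's own P450 family that the gene table names, and it is known to affect fruit and seed size. It had 5.78 and 5.70 log2 units at 90 min, against 4.75 and 4.58 at 0 min, a rise of 1.08 (SE 0.142), or 2.11-fold (limma adjusted p = 0.0134). The times did not overlap. Without each array the adjusted p lay between 0.0695 and 0.117, so the call was lost each time, while without the block it was 0.0235. CYP78A9 was the 1 call among 23 measured P450 genes, a share of 4.35% that is near the 3.42% of all probe sets. The median difference of the P450 genes was -0.05.

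Among 9 pollen markers the 2 calls (22.2%, against 3.42% of all probe sets) were a tubulin and a MADS-box factor. TUA1, an alpha-tubulin known from pollen, had 10.49 and 10.42 log2 units at 90 min, against 8.24 and 8.09 at 0 min, a rise of 2.29 (SE 0.136, limma adjusted p = 0.000822). AGL30, a MADS-box factor also known from pollen, had 7.08 and 6.93 at 90 min, against 5.51 and 4.96 at 0 min, a rise of 1.77 (adjusted p = 0.00332). TUA1 and AGL30 stood without overlap in both lines. The mean level of the 9 markers was 6.09 and 5.23 at 90 min, against 5.36 and 4.82 at 0 min, and their median difference was 0.73 in line 3-1 and 0.01 in line 4-3. The part of pollen content in other results was not tested. Markers of the gynoecium and ovule (7 measured, median -0.41), floral organs (2), the meristem (2), the tapetum (1) and the leaf (1) gave no call.

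The largest named fall was in the plastid genome, which encodes part of the photosystems, the plastid ribosome and the plastid RNA polymerase. Of 69 measured plastid genes 19 fell and none rose, or 27.5% against 1.38% of all probe sets. The median difference was -0.55 (-0.59 in line 3-1 and -0.43 in line 4-3), and 44 of the 69 (63.8%) were lower at 90 min in both lines, against 31.3% of all probe sets. Without the block 13 fell. Of the 19 calls, 6 were also made when the 90 min array of line 3-1 was left out and 10 when that of line 4-3 was. Leaving out the 0 min array of line 3-1 kept 6, and leaving out that of line 4-3 kept 8.

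The largest plastid falls, those of rpl16 and rpl14, were of ribosomal protein genes. Of 15 such genes 5 fell, where 1.38% of all probe sets fell. As a group they had a median of -0.40, with 9 of the 15 lower and a highest difference of 0.60. The rpl16 gene had 8.10 and 8.33 log2 units at 90 min, against 11.78 and 11.16 at 0 min, and fell by 3.26 (SE 0.241), or 9.55-fold (limma adjusted p = 0.00206). The adjacent rpl14 had 6.87 and 6.92 at 90 min, against 9.66 and 9.82 at 0 min, and fell by 2.85 (adjusted p = 0.000737). A further gene, rpl20, had 5.97 and 6.20 at 90 min, against 8.68 and 8.92 at 0 min, and fell by 2.72 (adjusted p = 0.000822). These 3 falls, rpl16, rpl14 and rpl20, were called under every alternative tried. The neighbouring rps3 had 10.24 and 10.31 at 90 min, against 10.07 and 10.18 at 0 min, a difference of 0.15 that was not called, and rps18 beside rpl20 differed by 0.60 (adjusted p = 0.108). Falls stood next to genes with a difference of the other sign.

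Most called falls of photosystem genes lay side by side on the map. In photosystem II, 3 of 15 genes fell, where 1.38% of all probe sets fell, and the median was 0.05. The 3 were the neighbours psbD, psbC and psbZ. The reaction centre gene psbD had 7.99 and 8.72 log2 units at 90 min, against 10.32 and 11.01 at 0 min, and fell by 2.31 (limma adjusted p = 0.00156). The antenna gene psbC had 8.42 and 10.15 at 90 min, against 11.93 and 12.24 at 0 min, and fell by 2.80 (adjusted p = 0.00985), with the lines far apart at 90 min. The small subunit gene psbZ fell by 1.45 (adjusted p = 0.0134). Photosystem I and its assembly genes had 4 falls among 7, with a median of -1.01. The reaction centre genes psaA and psaB fell by 1.69 and 0.93 (adjusted p of 0.0128 and 0.0123), their neighbour ycf3, an assembly factor, by 2.03 (adjusted p = 0.0189) and psaI by 1.05 (adjusted p = 0.0117). The neighbours atpI of the ATP synthase, rps2 of the ribosome and rpoC2 of the polymerase, fell by 1.30, 1.31 and 1.37 (adjusted p of 0.00475, 0.0172 and 0.00919). The ndhJ and ndhK genes of the NADH dehydrogenase-like complex lie side by side and fell by 1.05 and 1.08 (adjusted p of 0.0165 and 0.0266). Of the genes named in this group, psbD and atpI were called without each array, while psaA, psbC, psbZ, psaB, psaI, ycf3, rps2, rpoC2, ndhJ and ndhK each lost the call without the 90 min array of line 3-1. Without the block psbD, psbC and psaA were not called (adjusted p of 0.113, 0.124 and 0.0702). No call was made among 6 genes of the cytochrome b6f complex, whose median was -0.63.

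**Figure D3:**
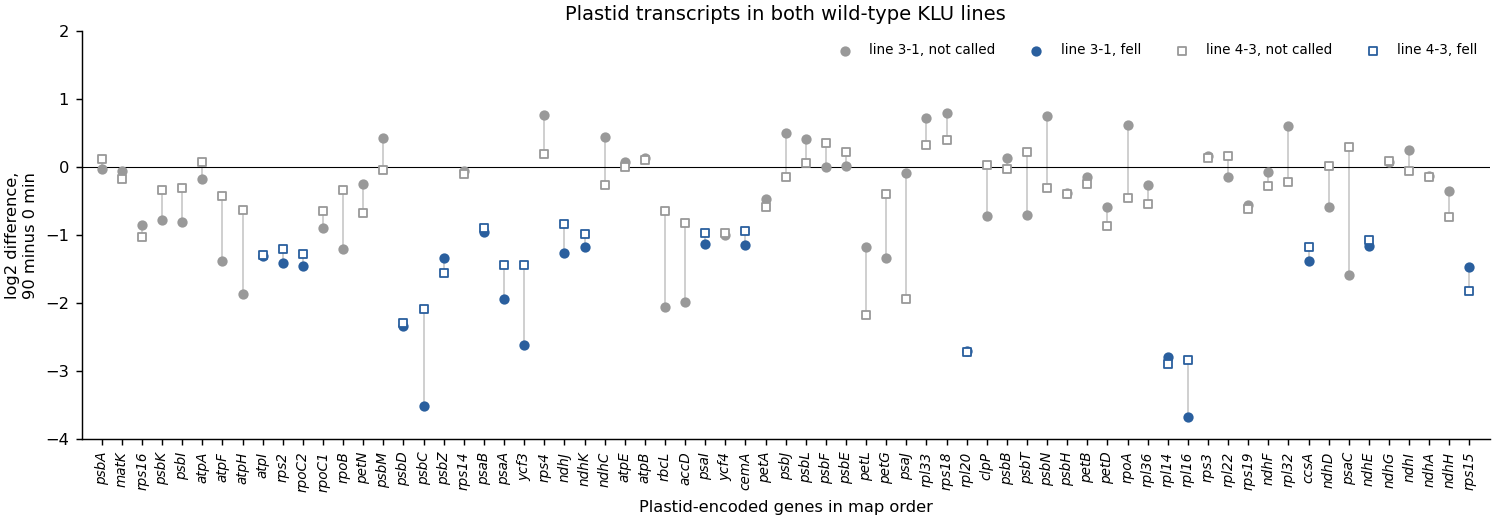
Log2 difference, 90 min minus 0 min, of the 69 plastid genes in map order, with 1 point for each line and called falls in blue. Some called falls form runs, such as psbD to psbZ, while others, such as rpl20 and ccsA, have no called neighbour. Whether calls lie side by side more often than their share would give was not tested. The lowest mean is that of rpl16, at -3.26.

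Nuclear genes of the photosystems gave no call. The 7 measured photosystem and antenna genes had a median difference of -0.08. RCA, the nuclear gene for Rubisco activase and the 1 leaf marker, had 12.15 and 12.77 log2 units at 90 min, against 13.02 and 13.07 at 0 min, and was not called (-0.59, limma adjusted p = 0.193). Against the same uninduced arrays, mutant KLU at 90 min had a lower mean for 47 of the 69 plastid genes. Wild-type KLU at 90 min had a lower mean for 49 of them, against 52.3% of all probe sets. For mutant KLU the share of all probe sets was not counted. The rpl16 gene had 8.10 and 8.33 with wild-type KLU at 90 min, against 8.74 and 8.43 with mutant KLU at 90 min (difference -0.37, adjusted p = 1).

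Other stress and growth lists gave no call. They were wound, touch and calcium response (10 measured, all with a positive difference, median 0.32), abscisic acid and water deficit (5, all positive, median 0.65), glutathione transferases (13, median -0.21), WRKY factors (7), oxidative stress (6), cell cycle and DNA replication (6, median -0.04), gibberellin (5), ethylene (3), cytokinin (2), clock (2), heat shock (2) and pectin modification (2). Over all probe sets, 52.3% had a negative difference and 96.6% were not called. The smallest of the positive differences was 0.005 in the wound list and 0.105, for COR15A, in the abscisic acid list. COR15A differed by -0.14 in line 3-1 and by 0.35 in line 4-3. The lists hold few measured genes, because few probe sets carry a symbol in the gene table. Among the 4 compared arrays, WRKY53 and STZ, both transcription factors of stress responses, were highest on the 90 min array of line 3-1. WRKY53 had 6.28 and 4.26 log2 units at 90 min, against 3.67 and 3.6 at 0 min, and STZ had 7.07 and 4.03 at 90 min, against 4.15 and 3.6 at 0 min. Neither was called (limma adjusted p of 0.248 for WRKY53 and 0.539 for STZ). With each array left out in turn, the difference of WRKY53 ranged from 0.4 to 2.87 log2 units. Elsewhere in the series STZ reached 8.52 with wild-type KLU at 240 min (line 4-3), and WRKY53 had 5.93 and 6.11 in mutant KLU line 3-2 at 90 and 240 min.

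The later time was set against 90 min in the same lines. Between 240 and 90 min no probe set was called by limma with or without the block (0% in each), while 3409 had an unadjusted p under 0.05 with the block and 2313 without it. BSMT1 and AT2G17850 had the smallest adjusted p (0.0792). BSMT1 had 9.74 and 9.44 log2 units at 0 min, 8.18 and 8.16 at 90 min and 6.38 and 5.92 at 240 min. AT2G17850 had 3.21 and 3.41 at 0 min, 5.71 and 6.70 at 90 min and 3.37 and 3.78 at 240 min, and was highest at 90 min in both lines. GH3.3 had 7.55 and 7.93 at 0 min, 8.72 in both lines at 90 min and 7.71 and 7.58 at 240 min. AGL86 had 3.18 and 3.33 at 0 min, 8.95 and 8.27 at 90 min and 9.56 and 9.14 at 240 min. At 240 min AT2G17850 and GH3.3 thus lay near their 0 min levels and AGL86 near its 90 min level.

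Mutant KLU at 90 min shares the vapour and the elapsed time, but comes from other lines. Values are given for lines 3-1 and 4-3 with wild-type KLU and for lines 1-5 and 3-2 with mutant KLU. Mutant KLU at 90 min against uninduced wild-type KLU, which are of different lines, gave 9 calls by limma without a block (0.0396%). Among them were the plastid genes rpl14 (-2.66 log2 units, adjusted p = 0.00277), rpl20 (-2.445, adjusted p = 0.0102) and rpl16 (-2.885, adjusted p = 0.018). The rises and falls were chosen with the uninduced arrays, so the following counts are a description. The same counts over all probe sets were not made, so there is no share to set them against. Of all 464 rises, mutant KLU lay more than 1 log2 unit above the higher uninduced array in 44 in line 1-5 and in 96 in line 3-2. Of the 20 largest named rises it did so in 0 in line 1-5 and in 14 in line 3-2. AGL86 had 8.95 and 8.27 with wild-type KLU, against 2.95 and 7.40 with mutant KLU. SBTI1.1 had 12.06 and 11.83 with wild-type KLU, against 7.15 and 10.33 with mutant KLU. The same split was seen for AT3G63360, with 9.90 and 8.92 with wild-type KLU, against 3.33 and 6.63 with mutant KLU. Of all 314 falls, mutant KLU lay more than 1 unit below the lower uninduced array in 53 in line 1-5 and in 51 in line 3-2, and of the 20 largest named falls in 15 and 12.

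**Figure D4:**
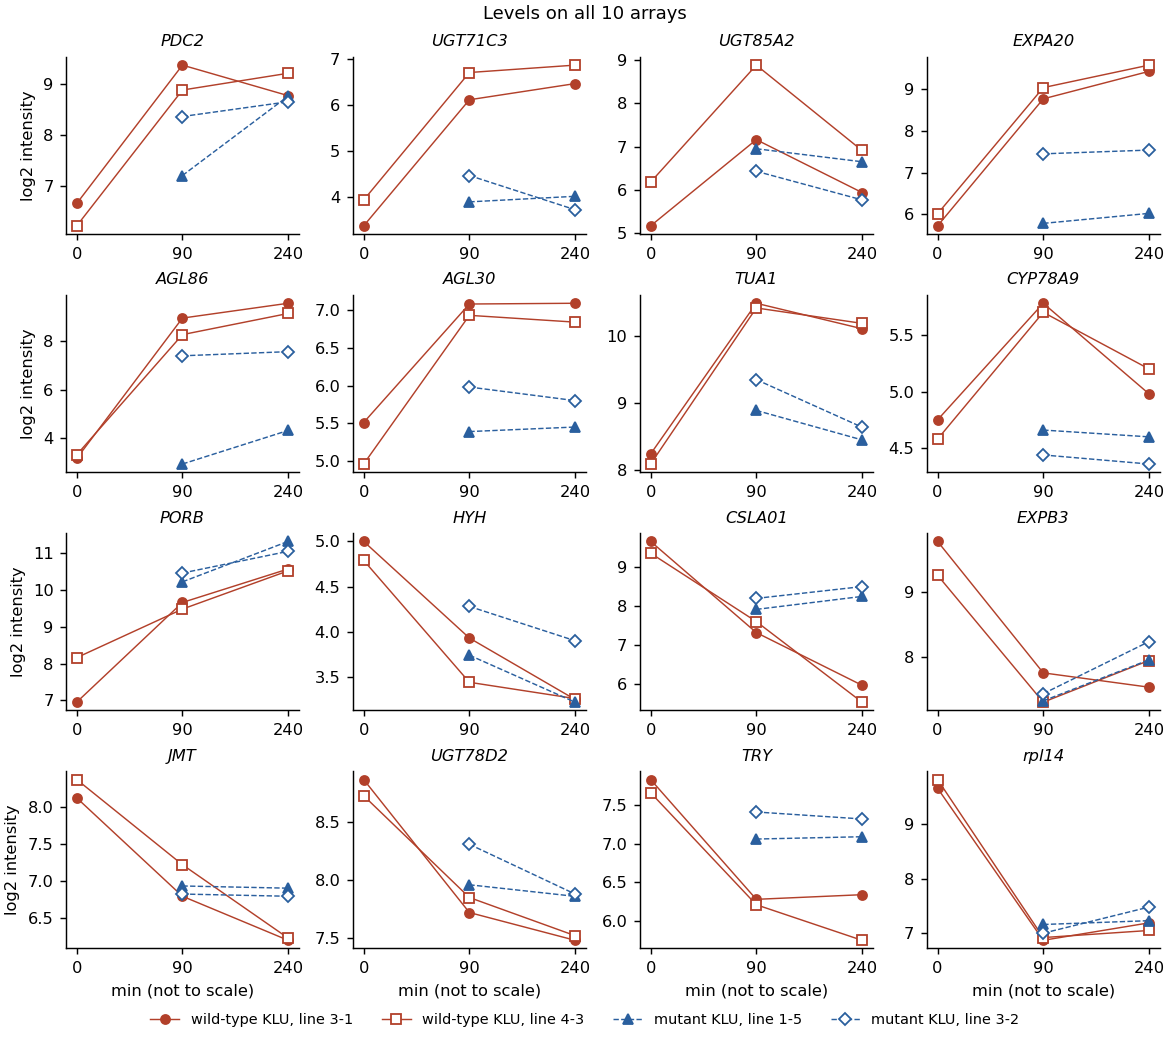
Log2 level of 16 genes on all 10 arrays against time, with 1 line drawn for each transformed line of wild-type KLU (red) and mutant KLU (blue). For AGL86 mutant KLU line 3-2 lies at 7.40 and line 1-5 at 2.95 at 90 min.

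Wild-type and mutant KLU at 90 min differed in 1 probe set by limma without a block (0.0044%; 1334 probe sets had an unadjusted p under 0.05), and in 13 with the line as a random block (0.0572%), of which 12 were higher with wild-type KLU. The 90 min arrays of wild-type KLU enter both this comparison and that with 0 min. The 1 probe set, 248692_s_at, is not named here and had 5.69 in both wild-type KLU lines, against 3.19 and 3.36 with mutant KLU (2.42 log2 units, SE 0.176, adjusted p = 0.0284). AT3G55840 had 5.98 and 5.90 with wild-type KLU, against 3.32 and 3.92 with mutant KLU (2.32 log2 units, adjusted p = 0.0601, and 0.0387 with the random block). TUA1 had 10.49 and 10.42 with wild-type KLU, against 8.89 and 9.35 with mutant KLU (adjusted p = 0.072). CYP78A9 had 5.78 and 5.70 with wild-type KLU, against 4.66 and 4.44 with mutant KLU (1.19 log2 units, adjusted p = 0.072, and 0.0554 with the random block). Of AT3G55840, TUA1 and CYP78A9, only AT3G55840 was called, and only with the random block. PORB and EXLA1 had the opposite order, with 9.66 and 9.48 with wild-type KLU against 10.22 and 10.46 with mutant KLU for PORB, and 9.22 and 9.25 with wild-type KLU against 9.68 and 9.55 with mutant KLU for EXLA1, neither of which was called (adjusted p of 0.886 and 1).

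Named rises often lay beside one another on a chromosome. Of 181 named rises whose immediate neighbour in the order of protein-coding genes was measured, 33 had a neighbour that also rose, against 226 of 8829 (2.56%) of all measured genes with a measured neighbour. Of 95 falls none had a neighbour that fell, against 1.4% of all. Chosen after the values were seen, this comparison was given no test. The 33 genes formed 12 pairs and 3 runs of 3, on chromosomes 1 (5 runs), 3 (5), 4 (2) and 5 (3), and 21 of their calls were also made without the block. None of their probe sets carries the suffix of probes shared between genes.

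The runs included related and unrelated names. UGT71C5, UGT71C4 and UGT71C3 form a run on chromosome 1, where UGT85A2 and UGT85A5 form a pair, and related copies of this kind may share probe signal. APS4 on chromosome 5 rose between AT5G43770 (1.00) and AT5G43790 (1.24), and the limma adjusted p was 0.0257 and 0.0155 for the neighbours. Both neighbours lost the call without each array. Without the block the limma adjusted p was 0.025 for AT5G43770 and 0.148 for AT5G43790. AT5G61550 had 5.85 and 5.92 log2 units at 90 min, against 3.66 and 3.70 at 0 min, and the adjacent AT5G61560 had 7.06 and 7.43 at 90 min, against 4.61 and 4.96 at 0 min. Both rose, by 2.21 and 2.46 (limma adjusted p of 0.00323 and 0.000737), and were called without each array. On chromosome 3, AT3G12440 rose by 3.17, AT3G12460 by 1.83 and AT3G12470 by 1.58, the last 2 with an adjusted p above 0.05 without each array (up to 0.164 and 0.114). Beyond the immediate neighbour, 9.95% of measured genes 2 places from a rise rose too. The share was 3.49% at 3 places, 7.63% at 4, 4.2% at 5, 3.46% at 10 and 4.61% at 20, so it did not fall evenly with distance. Among the partners of all measured genes it lay between 1.96% and 2.14% at these distances.

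**Figure D5:**
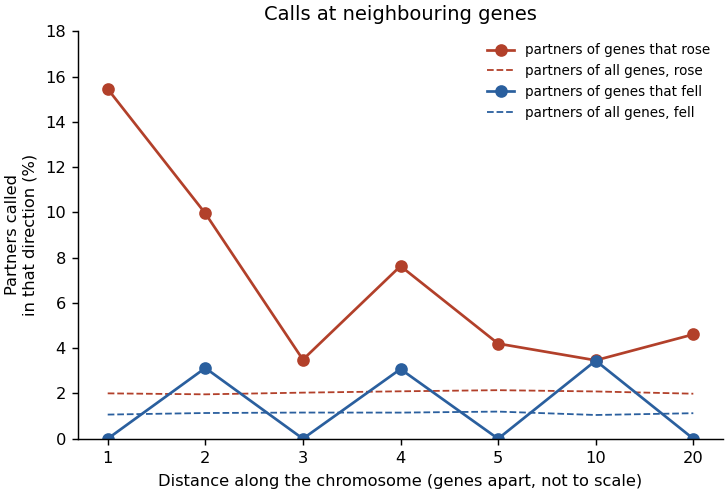
Share (percent) of measured genes that were called in the same direction, by their distance in genes from a gene that rose or fell, with dashed lines for the partners of all measured genes. Beside genes that rose, 15.5% of next genes rose, against 2% beside all measured genes, and beside genes that fell, 0% fell.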

How the data were processed

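Total RNA of pooled inflorescences was labelled with biotin and hybridised to Affymetrix ATH1 arrays, per the labels' protocols. The protocol named is the eukaryotic one, which primes on poly(A) tails, so plastid transcripts, most of which lack stable tails, are measured less directly. The authors deposited log2 intensities with 2 decimals, used here unchanged. Per the submitters' processing notes they come from RMA (version not stated), a method that removes background, equalizes arrays and summarises each probe set. Batches and scan dates are not in the labels.

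Of 22810 probe sets, 64 controls were left out. In the gene table used here 13513 name 1 gene, 503 several and 8730 are not listed. RefSeq (assembly TAIR10.1) gave symbols and gene order for 13436, and 1580 have a symbol other than a locus, so lists match few genes.

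Groups came from sample titles. The fit, in limma 3.58.1 (R 4.3.3), took in all 10 arrays with the line as a fixed block and was two-sided, with Benjamini-Hochberg adjustment over 22746 probe sets. The line numbers pair the arrays, since the same transformed line was sampled at each time, and the difference between the lines at 90 min correlated with that at 0 min (0.633 over probe sets). Constructs were compared by group means, because lines are nested in them, and with the line as a random block (correlation 0.271). The fit was tested on simulated data. Figures were drawn with matplotlib 3.10.9.

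The members and lists were chosen with earlier results of these data known. Named genes are the 20 largest rises and 20 largest falls without overlap, up to 6 called members of a list (otherwise the 2 with the smallest p) and the CYP78 family. Others named were chosen after their values were seen. No measured member was found for the mitochondrion-encoded, MYB, ERF and DREB, and aquaporin lists. The lists of cytosolic ribosomal proteins and NAC factors had 1 member each, with differences of 0.13 and 0.15, and no call.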

Additional observations from a re-analysis of the deposited data

How the results depend on the processing

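The 778 calls became 369 without the replicate block (252 rises and 117 falls) and 154 in a fit of the 4 compared arrays alone (129 rises and 25 falls), and lay between 169 and 297 without 1 array. The fits that leave out arrays have fewer arrays to estimate the spread from, and for the block the cause was not tested. The other alternatives gave 535 to 869 calls. The difference between 240 and 90 min gave 0 calls with and without the replicate block. Wild-type against mutant KLU at 90 min gave 1 call without a block and 13 with the line as a random replicate block. The direction of each named call was the same under every alternative, and 23 of 89 named calls were made under all alternatives that tested the probe set. Without the replicate block 56 of the 89 were called, and without each array 35.

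Turned signs were found only in genes that were not called. Leaving out 1 array gave values from -0.3075 to 0.3975 for RR16, -0.2675 to 0.3075 for ARR15, -0.0625 to 0.9125 for Hop3, -0.1425 to 0.0225 for NUB, -0.295 to 0.165 for CLV3, -0.535 to 0.115 for AMS, -0.76 to 0.16 for WRKY42, -0.3125 to 3.6625 for STZ and -0.345 to 0.035 for BAN. Of the 778 calls, 551 were of at least 1 log2 unit, so smaller changes are covered less fully with 2 lines. Most probe sets carry no symbol here, so list counts cover part of each pathway.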

Other observations

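Among the probe sets with no gene name here, the largest rise was that of 256099_at, with 12.90 and 12.17 log2 units at 90 min in lines 3-1 and 4-3, against 6.59 and 8.25 at 0 min (5.12 log2 units, limma adjusted p = 0.0058). With mutant KLU at 90 min, 256099_at had 7.73 in line 1-5 and 12.12 in line 3-2. Probe set 258158_at had 12.11 and 11.90 at 90 min, against 8.27 and 6.95 at 0 min (4.40 log2 units, adjusted p = 0.00518). The largest unnamed fall was that of 264016_at, with 8.13 and 6.56 at 90 min, against 10.08 and 9.22 at 0 min (-2.31 log2 units, adjusted p = 0.00327).

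The 90 min difference was over 2 log2 units higher in line 3-1 than in line 4-3 for 58 probe sets. It was over 2 log2 units higher in line 4-3 for 31. Of all these probe sets 3 were called, a share near the 3.42% of all probe sets tested. SWEET9, a sucrose transporter of nectaries, had 8.99 and 5.07 at 90 min, against 5.21 and 4.46 at 0 min, in lines 3-1 and 4-3. AT59, a pectate lyase-like gene, had 7.40 and 3.48 at 90 min, against 4.28 and 3.63 at 0 min. RALFL25 and RALFL26, of a family of small secreted peptides, had 8.14 and 3.40 (RALFL25) and 8.77 and 4.11 (RALFL26) at 90 min, against 5.69 and 3.38 (RALFL25) and 6.01 and 3.77 (RALFL26) at 0 min. For these 4 genes the 90 min array of line 3-1 stood above the other 3 arrays, and none was called (limma adjusted p of 0.164 for SWEET9, 0.332 for AT59, 0.302 for RALFL25 and 0.192 for RALFL26). They were chosen after their values were seen.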
